A study of Mus musculus with 4 samples.

Results

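Nes, Notch1 and Tubb3 are genes used to mark neural progenitors and young neurons, and they were read here in a table of regions from m6A-sequencing of mouse embryonic stem cells. Every distinct region that the table places under one of the 3 gene symbols was taken, which gave 11 of 6697 regions: 9 in Nes, 1 in Notch1 and 1 in Tubb3. The rule uses the symbols and no count, although earlier results of the table were known when the genes were picked. The authors annotated each of the 11 regions to 1 gene only.

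Nes encodes nestin, an intermediate filament protein of dividing neural stem and progenitor cells. Notch1 encodes a cell-surface receptor that is cleaved when a neighbouring cell presents a ligand; its freed intracellular part enters the nucleus, joins the DNA-binding protein RBPJ and switches on Hes and Hey genes, which hold progenitors back from becoming neurons. Tubb3 encodes class III β-tubulin, a microtubule subunit found mainly in neurons. N6-methyladenosine (m6A) is a methyl mark on adenosines inside mRNA, known to be frequent in long exons and near stop codons and to affect how long an mRNA lasts.

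The labels describe m6A mRNA of Gsk-3 double-knockout (DKO) cells and m6A mRNA of wild-type cells, with 1 library each, and 1 input library of total mRNA for each genotype. Both genotypes were of the strain named E14K, were grown without feeder cells, and had been without leukaemia inhibitory factor (LIF), which keeps mouse embryonic stem cells self-renewing, for 14 days. Gsk-3 is a pair of kinases that restrain Wnt signalling. Whether a genotype was 1 clone or several is not given in the sources used here.

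The table gives a DKO count and a wild-type count for each region and 0 input columns. The headers name the genotype only; both columns were read as m6A counts, since no input title names the assay, and this could not be checked. Without input values, fewer copies of a transcript and less m6A per copy cannot be told apart, nor, in these bulk cultures, can fewer cells of a type and less RNA per cell. Over the listed regions the DKO counts ran from 0 to 1100 and summed to 27072, and the wild-type counts ran from 15 to 13799 and summed to 573971. These sums are not sequencing depth. The DKO count was below the wild-type count in every listed region (0 regions at or above it), so a lower count in DKO is a property of the list and not of these 3 genes. Results therefore turn on how far the members' folds lie from those of the other listed regions. With 1 library per group there is no replicate check and no test, and every comparison is between these 2 libraries. Of 18 pluripotency markers 5 were listed, Pou5f1 among them with 6 DKO reads against 55 wild-type reads in a region also listed under another gene, while Nanog and Sox2 were not listed. The table gives no check of the deletion, since Gsk3a has no region in it and the only region of Gsk3b (3 DKO reads against 78 wild-type reads) is annotated as upstream of the gene.

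Nes carried most of the reads of the 3 genes. Its 9 regions held 11 DKO reads (exact Poisson 95% interval 5.49 to 19.7) against 2184 wild-type reads (2093 to 2278). Folds are given as wild type over DKO, in the direction and with the constant of 0.825 that the authors' ratio uses, and are worded as "lower in DKO". On that scale the summed Nes count was 164-fold lower in DKO, with an exact 95% interval of 91.3 to 329 that covers counting error only. By summed wild-type reads Nes stood in place 15 of 3882 listed genes. Its regions are unequal in size and together span 4666 bases, 49.9% of the 9359 bases between the ends of the gene (chromosome 3, 87971093 to 87980451, plus strand, in RefSeq for GRCm38).

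**Figure D1:**
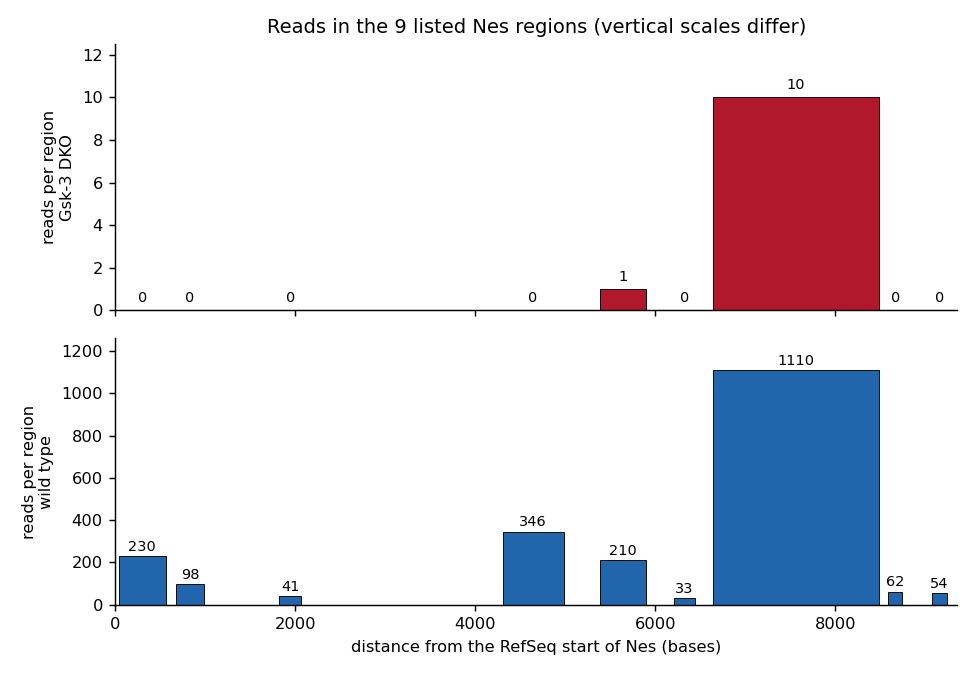
Reads in each of the 9 listed regions of Nes, DKO in the upper panel and wild type in the lower, with the distance from the gene's RefSeq start in bases on the x axis and reads per region on the y axis; bar width is the region's length and the vertical scales differ. The DKO panel holds 10 reads in the seventh region and 1 in the fifth, and the wild-type panel has reads in all 9, from 33 to 1110.

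Numbered from the 5′ end, the first Nes region (87971133 to 87971650) covered 5'UTR and coding sequence, and had 0 DKO reads and 230 wild-type reads. The second (87971768 to 87972075) and the third (87972916 to 87973159), each across a border of intron and coding exon, had 0 DKO reads against 98 and 41 wild-type reads. The fourth (87975396 to 87976074), again across such a border at the middle of the gene, had 0 DKO reads against 346 wild-type reads. In the 5′ part of the gene, from the first region to the fourth, the DKO library had no listed read.

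The fifth to eighth regions lay in coding exon only. The fifth (87976477 to 87976993) had 1 DKO read and 210 wild-type reads, and the sixth (87977302 to 87977529) had 0 DKO reads and 33 wild-type reads. The seventh (87977731 to 87979576), at 1846 bases the longest of the 9, had 10 DKO reads and 1110 wild-type reads. Only the fifth and seventh regions had any DKO read, and in every one of the 9 the wild-type count was the higher.

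The eighth region (87979685 to 87979836) had 0 DKO reads and 62 wild-type reads. The ninth (87980165 to 87980338), in the 3'UTR and 113 bases short of the annotated gene end, had 0 DKO reads and 54 wild-type reads. Wild-type signal thus ran from the 5'UTR to the 3'UTR of the gene rather than lying at 1 site. Per base it was highest in the seventh region, at 0.601 reads in the authors' read density, and lowest in the sixth, at 0.145, and 7 of the 9 regions were above the median of all listed regions (0.219).

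DKO reads were absent from 7 of the 9 Nes regions, where 50.5% of all listed regions and 36.1% of the 3732 exonic ones had none. All 9 Nes regions are exonic, meaning that the annotation includes coding exon or UTR. The share of regions without a DKO read falls as the wild-type count rises, so each region was also set beside exonic regions whose wild-type count was within 1.5 times of its own. Here and below, each such set includes the region itself. Of 146 exonic regions near the fourth, 10 had no DKO read (6.85%). Of 303 near the first, 26 had none (8.58%). Near the shallow sixth region, by contrast, 727 of 1544 had none (47.1%), so that a DKO count of 0 was common at that depth. The seventh region had DKO reads, but of the 15 exonic regions of like depth only 1 had a lower log2 of DKO over wild type.

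Where no DKO read was listed, a bound computed at 3 DKO counts is given. It was at least 95.1-fold for the fourth region and at least 63.2-fold for the first. For the other 5 regions without DKO reads it ran from 9.07 to 26.9, following their wild-type counts. The fifth region was 173-fold lower in DKO (30.8 to 6873), a ratio that rests on 1 read, and the seventh 91.6-fold lower (49.6 to 191). By this measure 8 of the 9 Nes regions were at least 10-fold lower, against 52.5% of all listed regions and 56.6% of exonic ones. The exception, the sixth along the gene, missed 10-fold through the bound that its 33 wild-type reads allow.

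**Figure D2:**
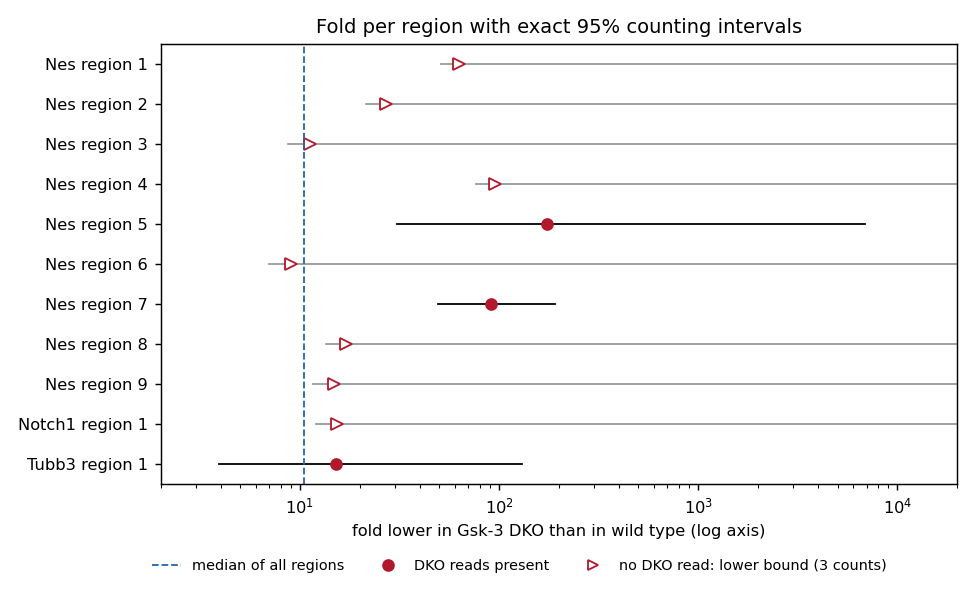
Fold lower in DKO than in wild type (log axis) for each of the 11 regions of Nes, Notch1 and Tubb3, with exact 95% counting intervals as lines; filled circles have DKO reads, open triangles are lower bounds at 3 counts, and the dashed line is the median of all regions (10.4). All symbols but that of the sixth Nes region lie right of the line. The intervals of Tubb3 and of the third and the sixth Nes regions cross it. Lines that reach the right edge have no upper limit. The median counts regions without DKO reads at their bound, so a symbol right of it can still have a log2 value above the median, as Tubb3 has.

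Within Nes the DKO reads were less spread than the wild-type reads. The seventh region held 10 of the 11 DKO reads, a share of 90.9% (Clopper-Pearson 95% interval 58.7 to 99.8), and 50.8% of the wild-type reads (48.7 to 52.9). Its share of the listed length was 39.6%. The other 8 regions together had 1 DKO read against 1074 wild-type reads, an 886-fold difference (159 to 35020), while the seventh alone had a fold of 91.6. The 2 fold intervals overlap between 159 and 191. The region was singled out after its values were seen. At the gene's overall ratio the fourth region's wild-type count corresponds to 1.74 DKO reads, so a count of 0 in any 1 region is within what counting allows. The 7 regions without DKO reads correspond to 4.35 together, above the upper 95% limit of 3.69 for a count of 0. These 7 were picked by their counts of 0, so whether the ratio is even along the gene was not tested.

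Of the 22 genes with 9 or more listed regions, Nes had the lowest log2 of DKO over wild type from summed reads (pseudocount 0.5), at -7.29. Next stood Flnc, an actin crosslinker of muscle, at -7.08 with 11 DKO reads against 1888 wild-type reads, and then its relative Flna at -5.43. The median of the 22 genes was -3.82. In a median gene of the group 21.1% of regions had no DKO read, and Nes and Flnc were the 2 genes with 7 or more such regions. Among the 48 genes with at least 1000 summed wild-type reads, Nes ranked second after Sox11, a transcription factor of neural progenitors with 2 DKO reads against 1467 wild-type reads, and the median there was -3.87. Over all 3882 listed genes, counted from the lowest log2 value, Nes stood in place 175, Notch1 in place 466 and Tubb3 in place 2821. In that order a gene without DKO reads is placed by its wild-type count alone.

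**Figure D3:**
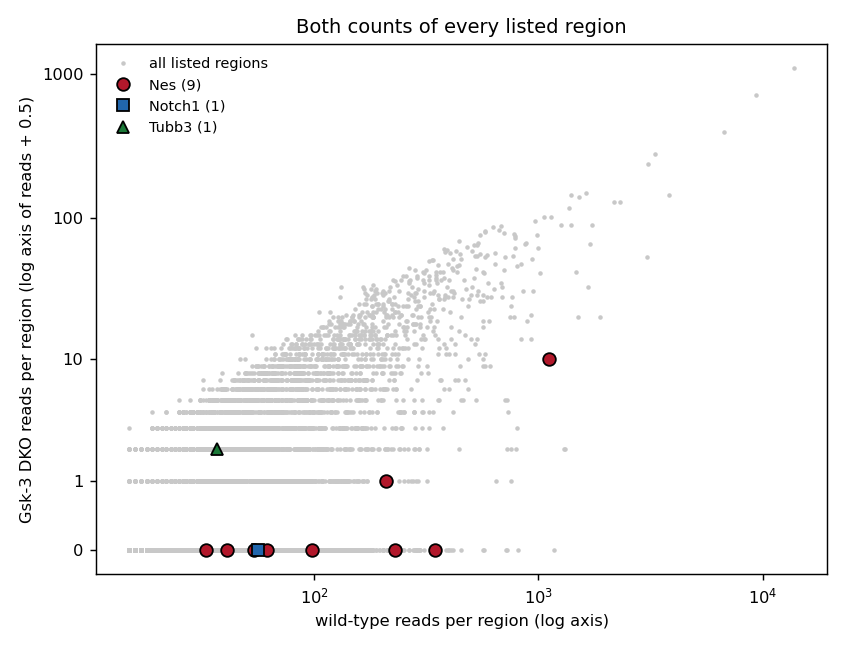
DKO reads against wild-type reads for every listed region, both on log axes (0.5 added to the DKO count), with the regions of Nes, Notch1 and Tubb3 marked. The seventh Nes region, at 10 DKO and 1110 wild-type reads, lies below most regions of like depth, Notch1 lies among the regions at 0 and Tubb3 inside the main cloud.

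Notch1 was listed through 1 region of 220 bases in a coding exon (chromosome 2, 26460570 to 26460789). The gene runs on the minus strand from 26503822 to 26457902, and the region's middle lies 43143 bases from the transcription start by the authors' distance; its nearer edge is 2668 bases short of the annotated 3′ end. It had 0 DKO reads (upper 95% limit 3.69) and 56 wild-type reads (42.3 to 72.7), at 0.255 wild-type reads per base. The fold was at least 15.4-fold lower in DKO. Among 1445 exonic regions of like wild-type count, that of Notch1 included, 482 (33.4%) had no DKO read, so the absence of DKO reads in Notch1 was shared by many regions of that depth.

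The other Notch receptors showed unequal values. Notch2 had 11 DKO reads against 426 wild-type reads in an intron (31.9-fold lower, 17.7 to 64.5). In a coding exon it had 0 DKO reads against 57 wild-type reads, nearly the counts of Notch1. Notch3 had 9 DKO reads against 135 wild-type reads in a coding exon region that the table also lists under another gene (12.4-fold, 6.33 to 27.6), and 0 against 21 in a second region. Notch4 was not listed. The 3 listed receptors were each at least 10-fold lower from summed reads, as were 59.5% of all listed genes. Among genes with a summed wild-type count within 1.5 times that of Notch1, itself included, the share was 81.6%. The summed folds of the receptors ran from 14.3 for Notch3 to 36.2 for Notch2.

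Of the ligands that bind these receptors only Jag2 was listed among 7, with 0 DKO reads against 29 wild-type reads where the coding sequence meets the 3'UTR (at least 7.97-fold). Among 24 genes for proteases, sugar transferases and trafficking factors of the pathway 6 were listed. Numbl, related to the Notch inhibitor Numb, had 0 DKO reads against 119 wild-type reads (at least 32.7-fold). Neurl1a, a ubiquitin ligase, had 0 against 52, and Psen2, a catalytic subunit of the protease that releases the receptor's intracellular part, had 0 against 24 in its 3'UTR. Rfng, a sugar transferase that modifies the receptors, had 3 against 68 in a 3'UTR and an upstream region, both shared with other genes. The regions of Fbxw7 (29 against 203) and Dtx3 (4 against 158) lay upstream of the genes by the authors' annotation, and those of Dtx3 are also listed under other genes.

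In the nucleus, 11 of 19 cofactors and targets were listed. The target Nrarp, which feeds back on Notch, had 0 DKO reads against 63 wild-type reads (at least 17.3-fold), and the target Hes1 had 3 against 44 (12.1-fold, 3.88 to 60.9). The coactivator gene Maml1 had 8 against 247 over 4 regions (25.5-fold, 12.7 to 59.6), and Maml2 and Maml3 each had 0 against 31, for Maml3 in a region shared with another gene. The repressor gene Spen had 18 against 147 (6.74-fold). The acetyltransferase genes Ep300 and Crebbp had 16 against 154 (7.94-fold) and 6 against 105 (14.4-fold). Kat2a had 0 against 47 in regions shared with another gene, and Snw1 had 3 against 26. RBPJ's own gene was not listed.

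Over the whole Notch list, 21 of 54 genes were listed, of which 13 (61.9%) were at least 10-fold lower in DKO from summed reads, where 59.5% of all 3882 listed genes were. No DKO read was found for 9 of the 21, against 42.3% of all listed genes. The median log2 of the 21 genes was -4.86 and that of all genes -4.77. The median fold, counting genes without DKO reads at their bound, was 12.9 in the list and 12.3 over all genes. These shares and medians were close to the background.

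Tubb3 was listed through 1 region of 190 bases in a coding exon (chromosome 8, 123421307 to 123421496), 519 bases short of the gene's annotated 3′ end on the plus strand. It had 2 DKO reads (0.242 to 7.22) and 37 wild-type reads (26.1 to 51.0), at 0.195 wild-type reads per base. The fold was 15.3 (3.94 to 131), lower in DKO, and the log2 value of -3.63 was above the median of the 1573 exonic regions of like wild-type count (-4.44), of which 1050 had a lower value. That median includes 691 regions without DKO reads, and 2 reads leave the fold of Tubb3 wide.

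Of 19 tubulin genes 5 were listed. Tubb2a and Tubb2b, β-tubulins of developing neurons among other cells, had 21 DKO reads against 210 wild-type reads over 2 regions and 41 against 395 over 3 regions. Tubb6, a β-tubulin expressed in many tissues, had 16 against 154. The 6 regions of these 3 genes lay close together, from 7.59-fold to 9.31-fold lower in DKO, with a summed fold of 8.03 (6.35 to 10.3) that lies inside the interval of Tubb3. The Tubd1 region (2 against 43) is annotated as upstream and is shared with another gene. β-tubulin genes are alike in coding sequence, and how reads that match several of them were counted is not given in the sources used here, so the split of reads among them is uncertain. The listed tubulins had a median log2 of -3.01, 0 of the 5 were below the median of all genes, and 2 of them (Tubb3 and Tubd1) were at least 10-fold lower, where 59.5% of all listed genes were.

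Nes was the deepest of the 8 listed intermediate filament genes of 20. Vim, which encodes vimentin, the partner with which nestin forms filaments, had 0 DKO reads against 37 and 35 wild-type reads in 2 regions (at least 19.8-fold from the sum). The keratin genes Krt18 and Krt7 had 0 against 68 and 0 against 33. The muscle filament gene Des had 2 against 30, the nuclear lamin genes Lmna and Lmnb2 2 against 50 and 4 against 67, and the neurofilament gene Nefm 1 against 19; the regions of Lmnb2 and Nefm are also listed under another gene. Of the 8 genes 7 were at least 10-fold lower, as were 59.5% of all listed genes, with a median log2 of -4.92, and of -4.06 for the 7 without Nes. The values of Nes, Vim, Krt18 and Krt7 were below the median of all genes and those of the other 4 above it. For Vim, Krt18 and Krt7, which had no DKO read, this place follows from the pseudocount and the wild-type count. The bound of Krt7 was 9.07-fold, while Lmna, above the median, was 20.6-fold lower (5.42 to 175).

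Among 42 neural genes 12 were listed. Of these, 11 were at least 10-fold lower (59.5% of all listed genes) and 6 had no DKO read (42.3% of all listed genes). Their median log2 was -6.72, or 20.5-fold with zeros at their bound, and for the 9 without Nes, Notch1 and Tubb3 it was -6.90, or 21.2-fold. This list lay low in an earlier reading of the same table, which was known when it was drawn up, so its place is not independent evidence. Every listed neural gene had at least 37 wild-type reads, where a gene without DKO reads passes 10-fold through its bound alone. Among all genes with a summed wild-type count within 1.5 times that of Nes, itself included, 81.0% were at least 10-fold lower. For Notch1 and Tubb3 the same share was 81.6% and 53.6%. Pou3f1, a transcription factor of early neural tissue, had 0 DKO reads against 211 wild-type reads over 3 coding regions (at least 58.0-fold). Rbfox3 and Msi2, which encode RNA-binding proteins of neurons and of progenitors, had 0 against 102 and 0 against 77, all in introns. Sox3 had 0 against 55 and Sox4 9 against 359 (32.9-fold, 17.1 to 72.5). Pax6, Neurog2, Dcx, Map2 and Dll1 were not listed, and 30 of the 42 were missing in all.

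**Figure D4:**
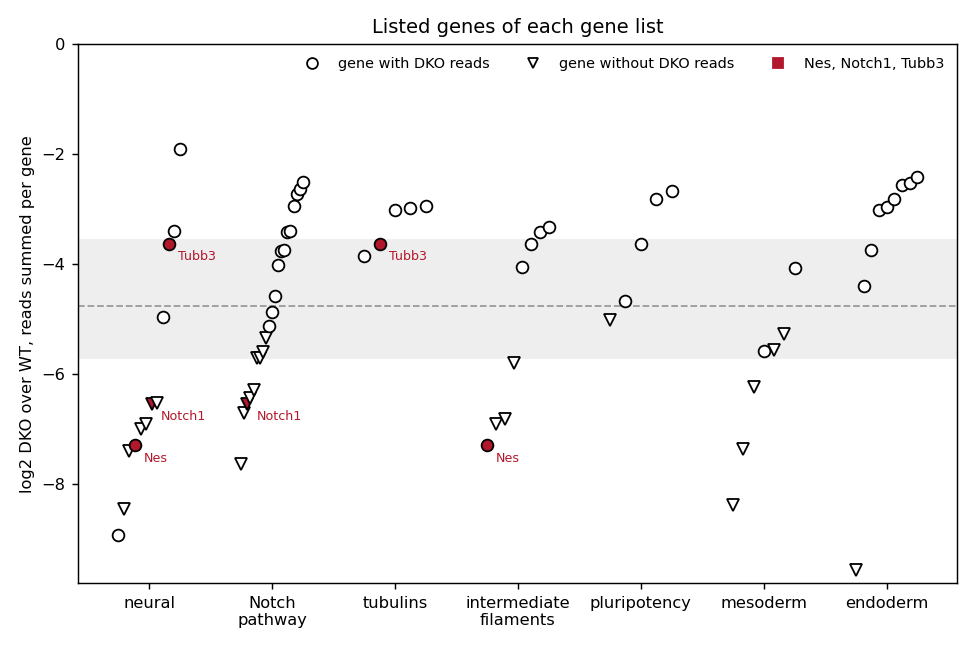
Log2 of DKO over wild type from reads summed per gene (pseudocount 0.5) for the listed genes of each list; filled symbols are Nes, Notch1 and Tubb3, triangles are genes without DKO reads, the dashed line is the median of all listed genes (-4.77) and the band their quartiles (-5.70 to -3.56). Nes and Notch1 lie below the band and Tubb3 inside it near its upper edge, with the other β-tubulins above the band.

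From lowest to highest, the log2 values of DKO over wild type were -7.29 for Nes, -6.54 for Notch1 and -3.63 for Tubb3. The order of Nes and Notch1 is not fixed by these counts, since the Notch1 value is that of a count of 0 at 56 wild-type reads. Tubb3 and Nes have fold intervals (3.94 to 131 and 91.3 to 329) that overlap between 91.3 and 131. Leaving out predicted genes and pseudogenes, among genes with a summed wild-type count within 1.5 times of its own, the genes nearest to Nes in log2 value over the 2 libraries were Flnc (a difference of 0.21), the collagen receptor gene Mrc2 (1.37) and Sox11 (1.63), out of 17 candidates. For Notch1 10 of 983 genes had the same value, the first by name being Bcl2, Cadps and Catsperb, and for Tubb3 13 of 1017 did, the first being Abt1, Aoc2 and Bcl7a.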

How the data were processed

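The deposited file was 1 table of m6A regions. Its counts were whole numbers per region, and per the file headers they are for wild type and Gsk-3 DKO; whether they were normalized is not stated there. The authors' enrichment factor was a ratio of the wild-type count to the DKO count times a constant (0.825), blank where the DKO count was 0. The authors' read density was a signal, wild-type reads per base of the region. The deposited distance to the transcription start is a signed score in bases. Per the submitters' processing notes, Bowtie2, DESeq and mm9 were used, in roles not given in the sources used here, like the peak caller and the rule for listing regions. Coordinates are as deposited: 5224 of 5230 regions whose gene identifier was in RefSeq for GRCm38.p6 were no farther than 5000 bases from it, and all 11 regions lay inside their gene, so they are described as GRCm38. Columns of samples outside this series numbered 0.

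The 7562 rows held 6697 distinct regions. Log2 of DKO over wild type used a pseudocount of 0.5 and the authors' constant. Folds at a DKO count of 0 used a floor of 3 counts, applied to a region or to a gene's sum. Intervals are exact Poisson or Clopper-Pearson intervals at 95% (Python 3.11.15, scipy 1.17.1); without molecular identifiers, PCR copies of a molecule cannot be recognised, so these limits cover counting error only. The interval code was tested on simulated data. With 1 library per group no p-value was computed. Input and total depth were not analysed here, so the planned m6A over input was left out. The members, gene lists and alternatives were chosen with earlier results of these data known. The text names Nes, Notch1, Tubb3, listed members of the Notch, tubulin, intermediate filament and neural lists, and the 3 genes nearest in log2 value to each member; Flna was named after its values were seen. Some genes that this rule takes are not reported here.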

Additional observations from a re-analysis of the deposited data

How the results depend on the processing

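No paired analysis was possible because each genotype had 1 library. Of 37 alternatives 19 stayed within counting error, all of them for the values of Nes, Notch1 and Tubb3. Those that choose or average regions could not differ for Notch1 and Tubb3, which have 1 region each. The exonic choice could not differ for Nes, whose regions are all exonic. The Notch1 interval has no lower limit, since it had no DKO read. Scaling by the median ratio of the 3315 regions with DKO reads adds 3.77 to every log2 value by construction: it gave -3.53 for Nes, -2.78 for Notch1 and -1.17 for the median of all regions (-4.93 as reported), and turned Tubb3 to 0.14, since its ratio is close to the median of those regions. The sign of that Tubb3 value rests on the pseudocount. Without it, 2 DKO reads against 37 wild-type reads lie below the median ratio of 0.0606. The Nes value of -7.29 was -6.45 from the deepest region alone and -9.21 without it. The median of all regions was -5.21 without the authors' constant, -5.74 and -3.42 at pseudocounts of 0.25 and 2, -4.77 with 1 value per gene, -4.27 in exonic regions and -4.44 in the deeper regions (mean count from 22.5 up, the median). The share of Nes regions at least 10-fold lower in DKO (88.9%) was 100% with a floor of 1 count, without the constant and in the deeper regions, against 82.5%, 64.3% and 75.2% of all regions (52.5% as reported). What moved the values of the subsets was not tested. Tubb3 has no value in the deeper regions, since its region lies under that limit. Fewer than 4 DKO reads stand behind 10 of the 11 regions, and this depth limits every fold.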

Other observations

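Genes of other cell types in the same table gave different values, and their part in the values of Nes, Notch1 and Tubb3 was not tested. Of 18 pluripotency markers 5 were listed, with 0 to 20 DKO reads and 19 to 187 wild-type reads each, a median log2 of -3.63 and 2 genes at least 10-fold lower in DKO. These 2 were Esrrb and Utf1. Lin28a and Utf1 were listed only through upstream regions, that of Utf1 also under another gene, and Sall4 only through introns. Of 16 mesoderm markers 7 were listed, with 0 to 2 DKO reads and 23 to 202 wild-type reads each and a median of -5.59. Of the 7, 5 had no DKO read, as had 42.3% of all listed genes, and 5 were at least 10-fold lower. Tbx6, without DKO reads, was listed only through an upstream region that is also listed under another gene. Acta2, with 0 DKO reads against 202 wild-type reads, was listed only through 4 regions whose annotation includes neither coding exon nor UTR. Of 14 endoderm markers 9 were listed, with 0 to 290 DKO reads and 59 to 2760 wild-type reads each, a median of -2.97 and 3 genes at least 10-fold lower. The corresponding share of all listed genes is 59.5%. Only 1 of the 9 was below the median of all genes. This was Thbd, with 0 DKO reads against 456 wild-type reads over 4 exonic regions (at least 125-fold). Its log2 value of -9.56 was lower than that of Nes (-7.29). Sox17 was listed only through an intron. Of the markers in these lists, Nanog, Sox2, Hnf4a, Afp, Mixl1 and Mesp1 were not listed, while Pou5f1, T, Eomes, Sox17 and Gata6 were.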
